A study of Mus musculus with 18 samples.

Results

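The difference between the FGF6 response of brown preadipocytes at 8 h and their response at 4 h was measured for every gene. It was computed as an interaction, the log2 ratio of FGF6 to vehicle at 8 h minus the same ratio at 4 h. All 15071 genes that passed the count filter over the 18 libraries of the series were included, of 48023 in the count table. None was selected for the test by its FGF6 effect. Most genes named below were then picked as the largest differences, by the rule given with the processing. The cells were brown preadipocytes from the mouse, an undifferentiated line immortalized with the SV40 T antigen and grown in serum. They received vehicle or FGF6 and were harvested at 4 h or 8 h, with 3 libraries for each of the 4 groups. These 12 libraries of the 18 in the series are described here, and the other 6 libraries, taken at 24 h, entered the filter, the scaling, and the estimate of the spread but no contrast. No genotype, age, or sex distinguishes the groups. The line stands for a precursor cell and not for a mature fat cell, no other line was sequenced, and the sources used here do not say whether the 3 libraries of a group came from separate cultures. The p-values below therefore measure the spread between these libraries, which may be technical.

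FGF6 is a secreted fibroblast growth factor that signals through FGF receptors, a family of tyrosine kinases on the cell surface. Active receptors switch on RAS, ERK, and PI3K signalling, and ERK rapidly induces immediate early transcription factors. Those factors in turn induce secondary genes, among them inhibitors that limit the pathway, cyclins, and genes that build ribosomes. The question behind the comparison was which genes gained, lost, or reversed the response between 4 h and 8 h, and whether vehicle-treated or FGF6-treated cells had moved. The changes in both kinds of cells were measured for each gene, and the difference of the 2 FGF6 effects equals the change in treated cells minus that in vehicle-treated cells. All of these changes share the same 12 libraries and are not separate evidence. A higher effect at 8 h means a more positive log2 ratio, which can be a stronger increase or a weaker decrease.

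The 12 libraries held between 24327816 and 33017444 counts. A count of 3, taken as the lowest level that can be told from 0, corresponded to between 0.0927 and 0.123 CPM (reads of a gene per 1000000 reads of the scaled library total), and this floor covers counting error only. Scaling factors (TMM) lay between 1.02 and 1.05 in the vehicle libraries, between 0.951 and 0.961 with FGF6 at 4 h, and between 0.994 and 1.00 with FGF6 at 8 h. Transcripts of preadipocyte markers summed to between 6784 and 8242 CPM over 12 genes. Markers of mature adipocytes summed to between 75.3 and 119 CPM over 6 genes, most of it Fabp4, and Ucp1, the uncoupling protein of brown fat, was listed at 0 in all 12 libraries. Ucp1 still passed the filter, which also used the 24 h libraries, and is among the genes tested. Markers of muscle (34.9 to 52.2 CPM over 7 genes), macrophages (16.7 to 30.1 CPM over 4 genes), endothelium (1.2 to 4.6 CPM over 3 genes), and epithelium (0.75 to 3.4 CPM over 3 genes) were low. In bulk RNA, a lower level in every cell and fewer cells that express a gene cannot be told apart. Both vehicle libraries numbered 1 stood apart in genes of the interferon response, which were lower there than in vehicle replicates 2 and 3. Results on those genes that moved when these libraries were left out are given below.

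The FGF6 effect differed between 8 h and 4 h for 4615 genes, or 30.6% of those tested (edgeR quasi-likelihood test, FDR under 0.05). For 2335 genes (15.5%) the effect was higher at 8 h and for 2280 (15.1%) it was lower. These percentages are the background for every count of group members below. Most differences were small. The median size of the difference was 0.34 on the log2 scale among the genes called and 0.198 over all genes, and 526 genes differed by at least 2-fold, 158 of them higher and 368 lower. FGF6 and vehicle differed for 9460 genes at 4 h (62.8%) and for 10664 genes at 8 h (70.8%). The median size of the FGF6 effect over all genes was 0.318 at 4 h and 0.413 at 8 h.

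The genes called were sorted by their effects at the 2 times. A response counted as gained where it was significant at 8 h and larger than at 4 h, as lost where it was significant at 4 h and smaller at 8 h, and as reversed where it was significant at both times with opposite signs. Gains were the most frequent. Of the 4615 genes, 3532 (76.5%) gained a response, 1802 of them an increase and 1730 a decrease. Among these, 1033 responses were new at 8 h and 2499 were already present at 4 h. A further 840 genes (18.2%) lost a response, which ended for 428 genes and became weaker for 412. Reversals were rare, with 214 genes (4.64%), 122 going from an increase to a decrease and 92 from a decrease to an increase. The last 29 genes were significant at neither time.

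**Figure D1:**
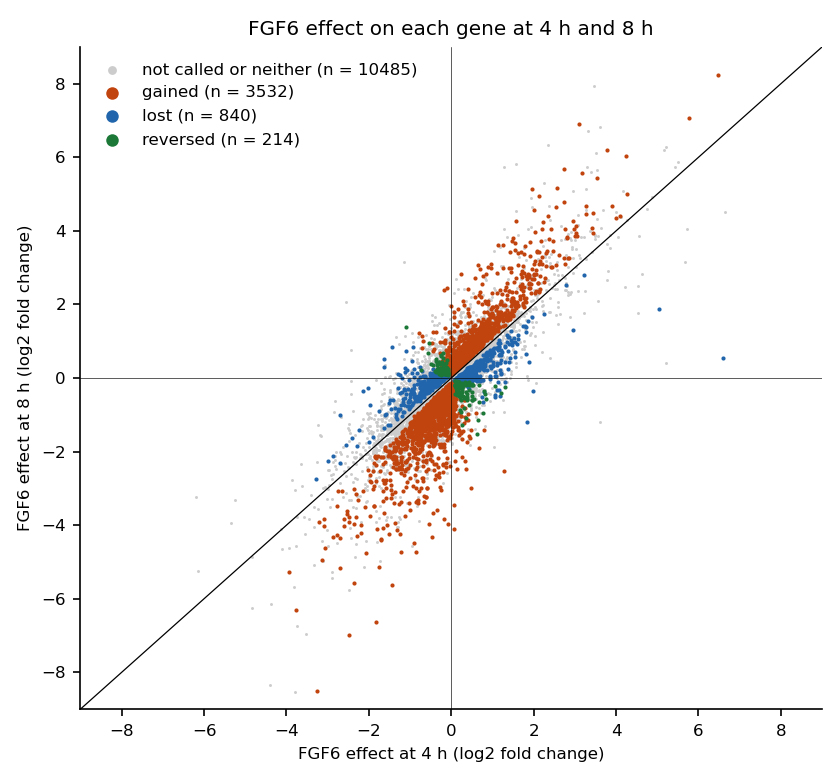
The FGF6 effect at 4 h (x axis) is plotted against the effect at 8 h (y axis), both as log2 fold changes, with 1 point per gene for the 15071 genes tested and the class of the interaction as the color. Most of the 3532 gained genes lie farther from 0 at 8 h than at 4 h on the same side, whereas the 840 lost genes lie closer to 0 at 8 h and the 214 reversed genes in the other 2 quadrants.

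Both vehicle-treated and FGF6-treated cells changed between 4 h and 8 h. In vehicle-treated cells 6475 genes (43%) differed between the times, and in FGF6-treated cells 7259 genes (48.2%). Among the 4615 genes whose FGF6 effect differed, only treated cells had changed significantly for 1653 genes (35.8%) and only vehicle-treated cells for 1118 (24.2%). Both had changed in the same direction, by different amounts, for 1144 genes (24.8%) and in opposite directions for 596 (12.9%). Neither change passed the test for 104 genes (2.25%). A significant change in one and not in the other is a description of 2 separate tests, and the test of their difference is the interaction itself. The change was larger in treated cells for 2850 genes (61.8%).

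The share of genes that moved in vehicle-treated cells was not the same in each class. Among genes with a gained increase, 585 had moved in vehicle-treated cells only and 521 in treated cells only, and the larger change was in treated cells for 44.1%. With a gained decrease, 408 genes had moved in vehicle-treated cells only and 686 in treated cells only, and treated cells had the larger change for 66.3%. Lost and reversed responses lay mostly in treated cells, which had the larger change for 84.2% of lost and 83.2% of reversed genes. Of the 418 genes with a lost increase, 176 had moved in treated cells only and 39 in vehicle-treated cells only. Of the 122 genes that went from an increase to a decrease, 63 had moved in treated cells only and 4 in vehicle-treated cells only.

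**Figure D2:**
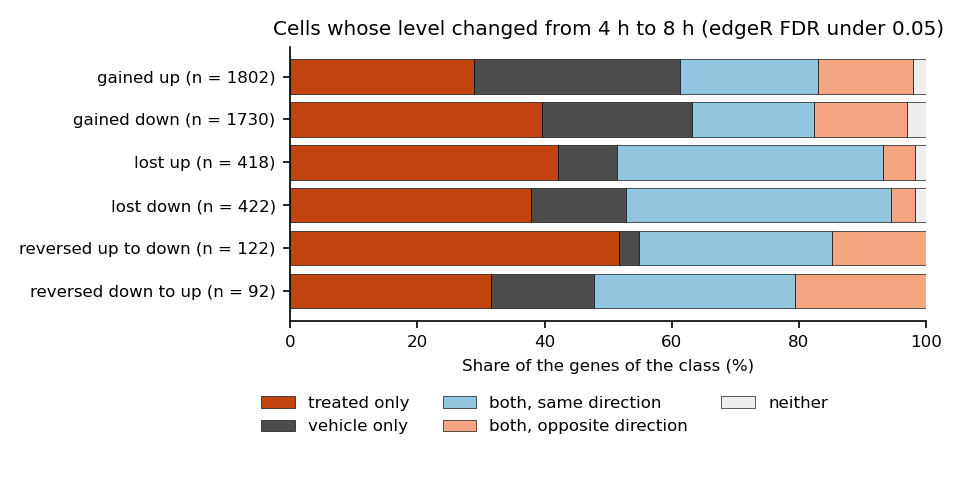
Horizontal bars give, for each class of the 4615 genes called, the percentage in which only treated cells, only vehicle-treated cells, both, or neither changed between 4 h and 8 h (edgeR FDR under 0.05). Vehicle-only changes were most frequent among gained increases (585 of 1802 genes) and scarce among genes that reversed from an increase to a decrease (4 of 122).

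Of the gene lists examined, the lowest median difference was that of the interferon-stimulated genes, the antiviral program that interferons induce. The lists were chosen with earlier results of these data known, so that their rank and counts are a description and no test. Of 25 measured, 23 had a lower FGF6 effect at 8 h, all of them as gained decreases, with a median difference of -1.13 against 0.0084 over all genes. Between 4 h and 8 h the median change was 0.072 in vehicle-treated cells and -0.96 in treated cells, and 22 genes had changed in treated cells only. At 4 h the median FGF6 effect on the list was -0.19 and at 8 h it was -1.32. Only Irf9 and Bst2 did not pass the test. Without both vehicle replicates 1 the median effect was -0.40 at 4 h and -1.46 at 8 h, and of the 23 gained decreases 6 were new at 8 h, against 18 with all libraries. That fit left out low libraries of vehicle only. It kept FGF6 4 h replicate 3, whose list sum of 3602 CPM was as low as that of vehicle 4 h replicate 1 (3601 CPM). The number of new decreases therefore depends on which libraries are kept.

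Ifit1 (ENSMUSG00000034459, chr19:34640871-34650009, plus strand) and Ifit3 (ENSMUSG00000074896, chr19:34583531-34588731, plus strand) encode tetratricopeptide proteins that bind viral RNA. Cxcl10 (ENSMUSG00000034855, chr5:92346638-92348889, minus strand) encodes a chemokine that attracts T cells. Ifit1 and Ifit3 are members of the list, and Cxcl10 is an interferon-inducible gene of the chemokine list. All 3 had a lower effect at 8 h, and their promoters hold the short element through which interferon factors act (the ISRE). It was searched as GAAA, any 2 bases, and GAAA on either strand, from 250 bases before to 50 bases after each start site in RefSeq sequence of GRCm38.p6. The motif was chosen after the expression values had been seen. Below, the element is in capitals within the promoter strand read 5′ to 3′, and TTTC is GAAA read from the other strand. The stretches of Ifit1 overlap each other.
Ifit1, chr19:34640775-34640804, plus strand: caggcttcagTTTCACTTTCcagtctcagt
Ifit1, chr19:34640794-34640823, plus strand: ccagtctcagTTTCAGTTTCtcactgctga
Ifit3, chr19:34583363-34583392, plus strand: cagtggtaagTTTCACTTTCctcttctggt
Ifit3, chr19:34583397-34583426, plus strand: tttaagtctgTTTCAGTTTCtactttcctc
Cxcl10, chr5:92349083-92349112, minus strand: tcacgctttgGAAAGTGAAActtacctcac
The element lay in the promoters of 11 of the 20 interferon-stimulated genes with a promoter sequence (55%) and in 328 of all 10683 promoters (3.07%). Among genes with a gained decrease it was in 91 of 1333 promoters (6.83%), and among genes with a gained increase in 33 of 1415 (2.33%). A match describes the sequence and is not a measured binding site.

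Ifit1 was at 295, 544, and 548 CPM with vehicle at 4 h and at 342, 546, and 571 CPM at 8 h. With FGF6, Ifit1 was at 389, 432, and 284 CPM at 4 h and at 117, 91.7, and 117 CPM at 8 h. The 3 libraries with FGF6 at 8 h lay below all other 9, and the groups overlapped at 4 h. The difference was -1.84 ± 0.26 (SE, edgeR FDR = 6.08e-06). Ifit3 was at 126, 264, and 278 CPM with vehicle at 4 h and at 140.3, 219.5, and 259.9 CPM at 8 h. With FGF6, Ifit3 was at 274, 332, and 188 CPM at 4 h and at 75.8, 50.2, and 71.5 CPM at 8 h. The difference for Ifit3 was -1.90 ± 0.32 (SE, edgeR FDR = 5.69e-05), and again no library with FGF6 at 8 h reached the level of any other. Mx1 was at 4.09, 7.48, and 7.74 CPM with vehicle at 4 h and at 4.8, 10.4, and 10.5 CPM at 8 h. With FGF6, Mx1 was at 5.66, 7.04, and 4.02 CPM at 4 h and at 1.5, 1.24, and 2.34 CPM at 8 h. Mx1, a dynamin-like GTPase that blocks viruses, differed by -2.17 ± 0.40 (SE, edgeR FDR = 0.000156). Summed over the 25 genes, the libraries with FGF6 at 8 h held 2519, 1891, and 2255 CPM. The sums in vehicle were 3601, 5369, and 5704 CPM at 4 h and 4198, 5374, and 5856 CPM at 8 h, so that replicate 1 was the lowest at both times. With FGF6 at 4 h the sums were 4551, 5017, and 3602 CPM, within the range of vehicle. Without both vehicle replicates 1, the same number of 23 genes had a lower effect and the median difference was -1.12.

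Interferon-inducible GTPases were among the largest gained decreases. By the rule stated with the processing, the largest were Ifi47, Aoc3, Gbp5, Gm4951, and Iigp1. Ifi47, Gbp5, and Iigp1 encode interferon-inducible GTPases that act at the vacuoles of intracellular pathogens. Ifi47 (ENSMUSG00000078920, chr11:49076587-49096974, plus strand) was at -2.69 ± 0.39 (SE, edgeR FDR = 8.22e-06), and its exons overlap a second gene on the same strand, so that its count is uncertain. Gbp5 was measured at 8.98, 15.7, and 17.1 CPM (vehicle, 4 h), 9.28, 11, and 6.58 CPM (FGF6, 4 h), 9.06, 14.8, and 14.7 CPM (vehicle, 8 h), and 1.4, 1.11, and 1.64 CPM (FGF6, 8 h). For Gbp5, a lower level in all 3 libraries with FGF6 at 8 h than in any other library gave a difference of -2.60 ± 0.35 (SE, edgeR FDR = 2.74e-06). Iigp1 differed by -2.41 ± 0.37 (SE, edgeR FDR = 1.72e-05) and Gm4951, a predicted gene, by -2.57 ± 0.48 (SE, edgeR FDR = 0.000192). Aoc3 (ENSMUSG00000019326, chr11:101330605-101341938, plus strand), a copper amine oxidase known from the surface of adipocytes and vessels, was of another kind. Aoc3 was at 35.5, 35, and 36.1 CPM with vehicle at 4 h and at 49.1, 47.8, and 50.5 CPM at 8 h. With FGF6, Aoc3 was at 10.7, 11, and 10.9 CPM at 4 h and at 2.34, 2.19, and 2.51 CPM at 8 h. Its level differed little between replicates, and all 4 groups were separate. The FGF6 effect on Aoc3 went from -1.71 at 4 h to -4.39 at 8 h, a difference of -2.68 ± 0.11 (SE, edgeR FDR = 1.51e-14), with vehicle-treated cells higher (0.47) and treated cells lower (-2.22) at 8 h than at 4 h.

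Genes that reversed from an increase to a decrease included several of the same kind. Cxcl10 was at 109, 221, and 227 CPM with vehicle at 4 h and at 159, 257, and 294 CPM at 8 h. With FGF6, Cxcl10 was at 293, 351, and 209.7 CPM at 4 h and at 89.8, 64.2, and 92.4 CPM at 8 h. With FGF6 at 4 h, replicate 3 lay within the vehicle range, whereas at 8 h the treated libraries were below every vehicle library. The Cxcl10 effect went from 0.62 at 4 h to -1.53 at 8 h, a difference of -2.15 ± 0.31 (SE, edgeR FDR = 6.91e-06). Without both vehicle replicates 1 the effect on Cxcl10 at 4 h was smaller, 0.35 (edgeR FDR = 0.0354), and the difference was -2.10. Slfn2, an interferon-inducible regulator of lymphocyte quiescence, differed by -1.40 ± 0.28 (SE, edgeR FDR = 0.000492), and Cd274, which encodes the checkpoint ligand PD-L1, by -1.33 ± 0.28 (SE, edgeR FDR = 0.000699). The vehicle libraries of both genes were lowest in replicate 1 at both times. Ifi205 lost an increase, with a difference of -1.43 ± 0.38 (SE, edgeR FDR = 0.0048). It belongs to a cluster of similar interferon-inducible genes on chromosome 1 whose reads may be shared among the copies. Without both vehicle replicates 1 the 4 h effects were 0.66 for Slfn2, 0.41 for Cd274, and 0.47 for Ifi205, and Ifi205, with -0.91 at 8 h (edgeR FDR = 0.000321), was then a reversal. The differences of Ifit1, Ifit3, Mx1, Ifi47, Gbp5, Gm4951, Iigp1, Cxcl10, Slfn2, Cd274, and Ifi205 all passed the test without these libraries and lay between -2.64 for Ifi47 and -1.23 for Cd274.

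The other genes that the rule named for a reversal from an increase were Tns1 and Ppfibp2. Tns1 (ENSMUSG00000055322, chr1:73910231-74124449, minus strand), which links integrins to actin at focal adhesions, was abundant and close between replicates. Tns1 was at 167, 157, and 152 CPM with vehicle at 4 h and at 103, 108, and 95.6 CPM at 8 h. With FGF6, Tns1 was at 187, 192, and 190.3 CPM at 4 h and at 41.6, 41.9, and 43.8 CPM at 8 h. At 4 h treated cells were above vehicle-treated cells in all 3 libraries, and at 8 h they were below in all 3. Both kinds of cells fell between the times (-0.64 in vehicle and -2.16 with FGF6), and the difference was -1.52 ± 0.062 (SE, edgeR FDR = 1.51e-14). Ppfibp2, a liprin-beta scaffold protein, went from 1.30 at 4 h to -0.24 at 8 h (-1.55 ± 0.11 (SE, edgeR FDR = 1.66e-10)).

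Members of the NF-kB pathway were split. Of 19 NF-kB subunits, feedback genes, and cytokines, 4 had a higher and 6 a lower effect at 8 h, with a median near 0 (0.029, between -0.0109 and 0.0485 when 1 library was left out, and below 0 without vehicle 8 h replicate 3). Tnfaip3 encodes A20, an enzyme that ends NF-kB signalling. Tnfaip3 was at 31, 34.7, and 31.3 CPM with vehicle at 4 h and at 30.4, 32.8, and 35.8 CPM at 8 h. With FGF6, Tnfaip3 was at 31.1, 32.9, and 34.7 CPM at 4 h and at 14.2, 13.2, and 15.2 CPM at 8 h. The first 3 groups of Tnfaip3 lay at one level and FGF6 at 8 h lay below all of them, a difference of -1.24 ± 0.10 (SE, edgeR FDR = 4.4e-10). Nfkbie, an NF-kB inhibitor, reversed by -0.64 ± 0.11 (SE, edgeR FDR = 4.4e-05). The alarmin Il33 gained an increase. Il33 was at 1.98, 2.75, and 2.27 CPM with vehicle at 4 h and at 0.852, 0.795, and 0.856 CPM at 8 h. With FGF6, Il33 was at 26.5, 29, and 26.6 CPM at 4 h and at 37, 34.4, and 38.5 CPM at 8 h. All 4 groups of Il33 were separate, with vehicle lower and FGF6 higher at 8 h than at 4 h, and the difference was 1.90 ± 0.18 (SE, edgeR FDR = 1.93e-08). Among 13 chemokines, 2 had a higher and 4 a lower effect. Ccl11 (eotaxin) was higher with FGF6 at 8 h by 1.65, with a difference of 1.58 ± 0.27 (SE, edgeR FDR = 7.01e-05), from levels of 0.667 to 2.75 CPM. Cxcl12, an abundant stromal chemokine, had a stronger decrease at 8 h (-0.95 ± 0.076 (SE, edgeR FDR = 1.02e-09)).

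Most listed inhibitors of the FGF and ERK pathway were already induced at 4 h, and part of the list had a higher FGF6 effect at 8 h. Of 20 inhibitors that the pathway induces, 14 were higher and 5 lower with FGF6 at 4 h. At 8 h, 7 had a higher and 1 a lower effect than at 4 h, with a median difference of 0.16. The list fell in both kinds of cells between the times, by medians of -0.18 in vehicle and -0.19 with FGF6. In treated cells 12 members fell and 4 rose, and in vehicle 10 fell and 2 rose. Dusp14, among those with a higher effect, had a weaker decrease. By class, 6 gained a response and 2 lost part of it. Dusp6 (ENSMUSG00000019960, chr10:99263231-99267489, plus strand) encodes a phosphatase that inactivates ERK. Dusp6 was at 31.1, 31.8, and 29.7 CPM with vehicle at 4 h and at 16.7, 16, and 13.5 CPM at 8 h. With FGF6, Dusp6 was at 445, 474, and 472 CPM at 4 h and at 397, 402, and 389 CPM at 8 h. Treated cells lay far above vehicle at both times, yet they fell slightly. Vehicle-treated cells fell more (-0.998 against -0.23), so that the FGF6 effect was larger at 8 h by 0.77 ± 0.089 (SE, edgeR FDR = 3.13e-07). Dusp5, a nuclear ERK phosphatase, had the same pattern with a difference of 0.49 ± 0.07 (SE, edgeR FDR = 5.9e-06). Rasa1, which switches off RAS, rose in treated cells only (0.48, interaction 0.51 ± 0.046 (SE, edgeR FDR = 7.8e-09)).

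Immediate early transcription factors showed the same lean to a higher effect. Of 17 tested, 11 had a higher and 2 a lower effect at 8 h, with a median of 0.34. The median change between the times was -0.285 in vehicle and -0.09 with FGF6, and in treated cells 8 members fell and 3 rose. Of those with a higher effect, Fosl2, Jund, and Srf had a decrease at 4 h that was weaker or ended at 8 h. Egr3 was at 1.69, 2.01, and 1.74 CPM with vehicle at 4 h and at 1.1, 0.985, and 0.685 CPM at 8 h. With FGF6, Egr3 was at 14.5, 14.6, and 15.4 CPM at 4 h and at 15.2, 16.6, and 17.4 CPM at 8 h. For Egr3, an early growth response factor, the treated libraries of the 2 times overlapped and the vehicle libraries did not, and the difference was 1.10 ± 0.20 (SE, edgeR FDR = 0.000137). Ier3, a survival gene, rose in treated cells (0.90) and fell slightly in vehicle (-0.17), a difference of 1.07 ± 0.09 (SE, edgeR FDR = 2.05e-09). Atf3, a stress-induced repressor, went the other way (-0.90 ± 0.23 (SE, edgeR FDR = 0.00418)). Of 14 ETS factors downstream of FGF, 5 had a higher effect at 8 h, led by Etv4 and Etv5. A lower effect was found for 1 (Elk1), and for 0 with library sizes alone. The median difference of the 14, -0.0012, was close to 0 and changed sign with library sizes alone (0.036) and without most single libraries. Etv4 (ENSMUSG00000017724, chr11:101769742-101785371, minus strand) is a standard readout of FGF signalling. Etv4 was at 5.12, 4.36, and 4.27 CPM with vehicle at 4 h and at 1.7, 1.53, and 1.92 CPM at 8 h. With FGF6, Etv4 was at 25, 22.3, and 23.2 CPM at 4 h and at 36.2, 37.7, and 36.2 CPM at 8 h. All 4 groups of Etv4 were separate, with vehicle lower and FGF6 higher at 8 h, and the difference was 2.06 ± 0.15 (SE, edgeR FDR = 1.71e-10). Etv5 differed by 0.69 ± 0.11 (SE, edgeR FDR = 4.48e-05), with a significant change in vehicle only. Ets2 lost a decrease (0.48 ± 0.047 (SE, edgeR FDR = 2.46e-08)).

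Among the receptors, Fgfr1 rose with FGF6 at both times by a similar amount (0.75 and 0.70). Its difference of -0.046 ± 0.051 (SE, edgeR FDR = 0.553) did not pass the test. Fgfr2 was lower with FGF6 at both times (-1.88 and -1.95, difference -0.077 ± 0.10 (SE, edgeR FDR = 0.63)). Fgfr3 was at 5.87, 5.1, and 4.07 CPM with vehicle at 4 h and at 4.67, 4, and 4.69 CPM at 8 h. With FGF6, Fgfr3 was at 2.44, 3.03, and 2.48 CPM at 4 h and at 3.52, 4.2, and 4.03 CPM at 8 h. Fgfr3, the receptor the study followed, was lower with FGF6 at 4 h and no longer differed significantly at 8 h, a difference of 0.72 ± 0.21 (SE, edgeR FDR = 0.0101). It overlaps a gene on the other strand over 998 of its 7158 exonic bases. Fgfr4 had between 0 and 5 counts in a library and was not tested.

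The list of EGF family, angiogenic, and other growth factors, which includes the receptor Egfr, was split. Of 27 tested, 11 had a higher and 7 a lower effect at 8 h. Areg, the EGF receptor ligand amphiregulin, had the largest 8 h effect of the growth factors named. Areg was at 0.519, 0.34, and 0.334 CPM with vehicle at 4 h and at 0.126, 0.0636, and 0.171 CPM at 8 h. With FGF6, Areg was at 35.7, 33.4, and 38.9 CPM at 4 h and at 37.3, 37.9, and 37 CPM at 8 h. Treated libraries overlapped between the times, and vehicle libraries, close to the floor at 8 h, were lower, which gave a difference of 1.76 ± 0.40 (SE, edgeR FDR = 0.00146). The receptor itself reversed, since Egfr went from 0.44 at 4 h to -0.73 at 8 h (-1.17 ± 0.077 (SE, edgeR FDR = 3.19e-11)). Angpt2, an angiopoietin that destabilizes vessels, gained a decrease (-1.58 ± 0.11 (SE, edgeR FDR = 4.98e-11)). Of 24 genes of the IGF system or induced by FoxO factors, 5 had a higher and 10 a lower effect. The PI3K inhibitor Pik3ip1 (-1.31 ± 0.17 (SE, edgeR FDR = 2.49e-06)), the IGF-binding protein Igfbp4 (-1.16 ± 0.079 (SE, edgeR FDR = 6.47e-11)), and the ubiquitin ligase Fbxo32 (-1.04 ± 0.26 (SE, edgeR FDR = 0.00312)) all had stronger decreases.

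**Figure D3:**
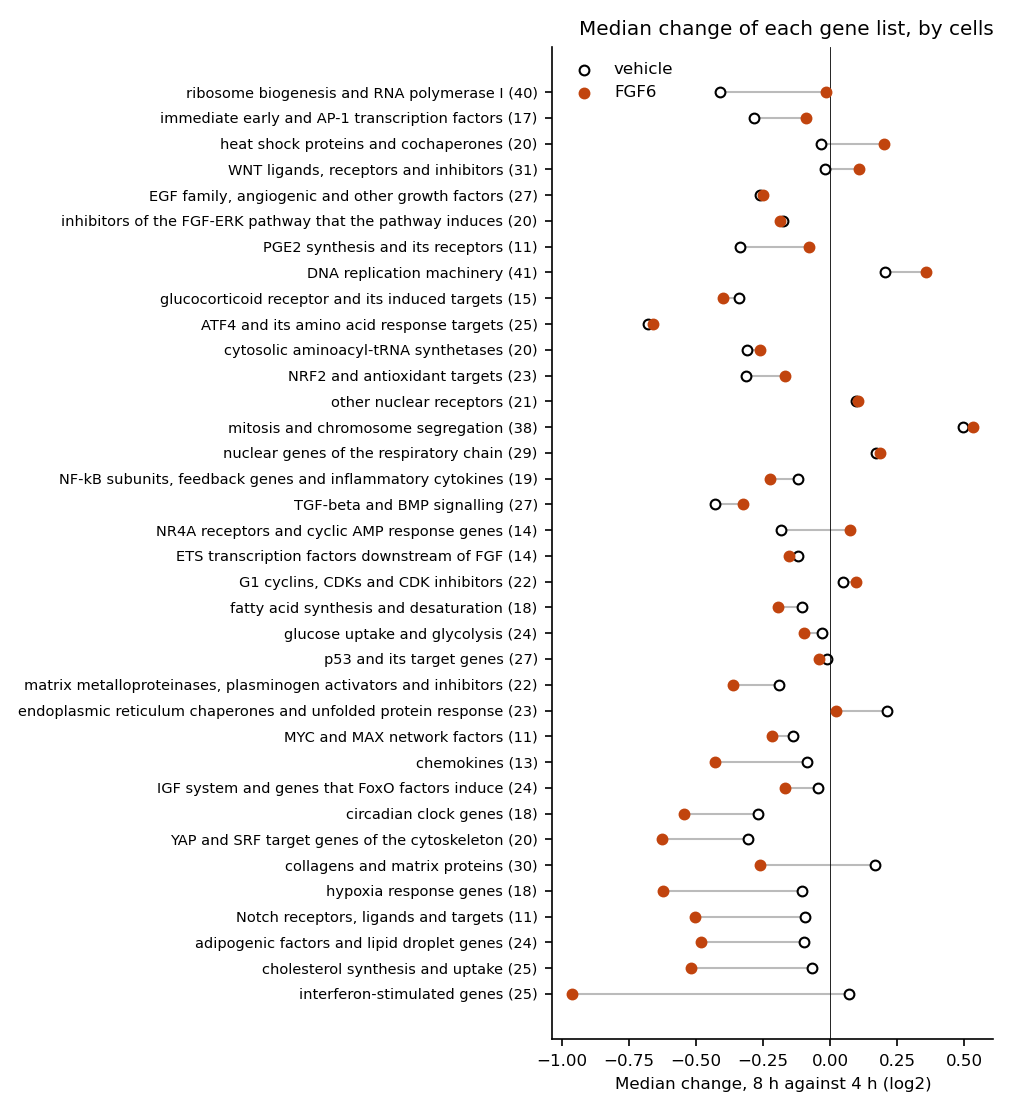
For each gene list, with the number of genes tested in brackets, the median log2 change between 4 h and 8 h is shown in vehicle-treated cells (open circles) and FGF6-treated cells (filled circles), ordered by the median difference of the FGF6 effect. Ribosome biogenesis genes lie at -0.41 in vehicle and near 0 with FGF6, and interferon-stimulated genes lie near 0 in vehicle and at -0.96 with FGF6.

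In ribosome biogenesis it was mostly vehicle-treated cells that moved. Of 40 genes that make ribosomal RNA or assemble ribosomes, 34 had a higher FGF6 effect at 8 h and 1 (Taf1b) a lower one, with a median of 0.40. The median change was -0.41 in vehicle-treated cells and -0.014 in treated cells, and 19 members had changed in vehicle-treated cells only. Rrp12 was at 86.1, 84.3, and 79 CPM with vehicle at 4 h and at 51.5, 49.1, and 47.2 CPM at 8 h. With FGF6, Rrp12 was at 131, 134, and 135 CPM at 4 h and at 124, 123, and 120.5 CPM at 8 h. Rrp12, which helps export ribosomal subunits, fell in vehicle by 0.75 and in treated cells by 0.12 on the log2 scale, a difference of 0.63 ± 0.058 (SE, edgeR FDR = 9.15e-09). Vehicle and FGF6 libraries did not overlap at either time. Ppan, a factor of the large subunit, differed by 0.60 ± 0.057 (SE, edgeR FDR = 1.58e-08). Mybbp1a, a nucleolar protein that binds MYB, fell in vehicle (-0.48) and rose slightly in treated cells (0.083, difference 0.56 ± 0.046 (SE, edgeR FDR = 1.37e-09)). Promoters of these genes held the ETS element CCGGAAGT in 11 of 36 (30.6%) and the MYC E-box CACGTG in 9 of 36 (25%), searched on both strands. The shares among all promoters were 8.29% and 10.1%. Among gained increases the shares were 10% and 13.4%, and among gained decreases 6.23% and 8.63%. In promoters of genes with gained increases and gained decreases, the cyclic AMP element TGACGTCA lay in 3.6% and 2.63%, the AP-1 element TGACTCA in 3.18% and 4.58%, the amino acid response element TTGCATCA in 0.636% and 0.9%, and the NF-kB site in 1.91% and 2.18%.

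Translation genes leaned the same way with smaller differences. Of 20 cytosolic tRNA synthetases, 9 had a higher and 1 a lower effect (13 and 0 with library sizes alone), with a median of 0.10. Vars rose in treated cells (0.42, difference 0.51 ± 0.054 (SE, edgeR FDR = 7.96e-08)). Iars fell more in vehicle than in treated cells (0.36 ± 0.045 (SE, edgeR FDR = 9.88e-07)), and Mars reversed from a decrease to an increase (0.32 ± 0.043 (SE, edgeR FDR = 2.81e-06)). Of 25 ATF4 targets of the amino acid response, 10 had a higher and 4 a lower effect. That list fell in both kinds of cells, with medians of -0.68 in vehicle and -0.66 with FGF6. Vldlr, the VLDL receptor, reversed to a decrease (-0.997 ± 0.18 (SE, edgeR FDR = 0.000169)), Ddit4, an mTORC1 inhibitor, had a stronger decrease (-0.66 ± 0.10 (SE, edgeR FDR = 7.9e-06)), and Cebpb, an early adipogenic factor, lost its decrease (0.68 ± 0.17 (SE, edgeR FDR = 0.0034)). Myc itself fell in both, more so in vehicle, and differed by 0.28 ± 0.075 (SE, edgeR FDR = 0.00614). Of 11 genes of the MYC network, 1 had a higher effect and 5 a lower one (2 and 5 with library sizes alone), among them the MYC antagonist Mxd1 (-0.58 ± 0.10 (SE, edgeR FDR = 0.000117)) and the glucose sensor Mlxip (-0.44 ± 0.061 (SE, edgeR FDR = 4.21e-06)).

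Cell cycle genes included a group that reversed. Of 41 genes of the replication machinery, 23 had a higher and 1 a lower effect at 8 h, with a median of 0.15. The list rose in both kinds of cells, by a median of 0.21 in vehicle and 0.36 with FGF6. At 4 h its median FGF6 effect was -0.041 and at 8 h it was 0.14. Cdc6 was at 46.8, 43.8, and 43.7 CPM with vehicle at 4 h and at 54, 58.5, and 54.6 CPM at 8 h. With FGF6, Cdc6 was at 41.4, 42.4, and 40.2 CPM at 4 h and at 75.4, 79.2, and 78.8 CPM at 8 h. Cdc6, which loads the replicative helicase, reversed from slightly lower to higher with FGF6, and the groups did not overlap at either time (0.60 ± 0.065 (SE, edgeR FDR = 1.13e-07)). Rrm2, the small subunit of ribonucleotide reductase, went from -0.32 at 4 h to 0.24 at 8 h (0.56 ± 0.054 (SE, edgeR FDR = 2.28e-08)). Fen1, the flap endonuclease, also reversed (0.75 ± 0.18 (SE, edgeR FDR = 0.00284)), but 2039 of its 2422 exonic bases overlap genes on the other strand and its count is uncertain. Of 38 genes of mitosis, 5 had a higher and 4 a lower effect (9 and 1 with library sizes alone), a count near the background. Without FGF6 4 h replicate 1 there were 8 higher, and 3 without FGF6 4 h replicate 2, vehicle 4 h replicate 3, or vehicle 8 h replicate 3. Their median FGF6 effect was below 0 at both times, -0.47 at 4 h and -0.43 at 8 h.

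Of 22 G1 cyclins, their kinases and inhibitors, and E2F factors, 8 had a higher effect at 8 h (5 without vehicle 8 h replicate 1) and 7 a lower one. Ccnd1 was at 73.8, 69.3, and 65.8 CPM with vehicle at 4 h and at 46.5, 46.7, and 38.8 CPM at 8 h. With FGF6, Ccnd1 was at 303, 318, and 304 CPM at 4 h and at 393, 402, and 399.9 CPM at 8 h. Ccnd1, the cyclin D1 that mitogens induce, separated all 4 groups, and the difference was 1.03 ± 0.093 (SE, edgeR FDR = 6.33e-09). A gene on the other strand covers 1100 of its 4709 exonic bases. E2f2 was measured at 6.55, 7.14, and 6.51 CPM (vehicle, 4 h), 5.66, 5.07, and 4.96 CPM (FGF6, 4 h), 8.87, 10.4, and 9.17 CPM (vehicle, 8 h), and 13.6, 13.5, and 13.8 CPM (FGF6, 8 h). E2f2, an activator of S-phase genes, was lower with FGF6 at 4 h and higher at 8 h without overlap at either time (0.89 ± 0.14 (SE, edgeR FDR = 2.14e-05)). Cdkn1a, which encodes the CDK inhibitor p21, lost most of its increase (-0.59 ± 0.055 (SE, edgeR FDR = 1.08e-08)). Of 27 p53 targets, 3 had a higher and 10 a lower effect. The death receptor Fas had a stronger decrease (-1.42 ± 0.16 (SE, edgeR FDR = 2.28e-07)), the stress gene Gadd45g a new decrease (-0.69 ± 0.12 (SE, edgeR FDR = 4.73e-05)), and Pmaip1, at between 0.572 and 2.18 CPM, a new increase (1.18 ± 0.35 (SE, edgeR FDR = 0.0116)).

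Cholesterol synthesis genes had a lower FGF6 effect at 8 h. Of 25 genes of cholesterol synthesis and uptake, 17 passed the test, each with a lower effect, with a median of -0.42, and between 13 and 20 did so when 1 library was left out. Treated cells fell by a median of 0.52 on the log2 scale and vehicle-treated cells by 0.066. Of the 17 genes, 10 gained a decrease and 6 reversed to a decrease. Summed over the 25 genes, replicate 1 was the highest library of each group, with 3772 CPM in vehicle and 3875 CPM in treated cells at 4 h and with 3616 and 2694 CPM at 8 h, and all libraries with FGF6 at 8 h lay below all others. Hmgcs1 was at 269.5, 245, and 256 CPM with vehicle at 4 h and at 303, 285, and 296 CPM at 8 h. With FGF6, Hmgcs1 was at 209.8, 189, and 188 CPM at 4 h and at 105, 92.9, and 94.3 CPM at 8 h. For Hmgcs1 (ENSMUSG00000093930, chr13:119690379-119708260, plus strand), which makes HMG-CoA, the 3 libraries with FGF6 at 8 h lay between 92.9 and 105 CPM and all others at or above 188 CPM, a difference of -1.20 ± 0.073 (SE, edgeR FDR = 8.6e-12). Insig1 was at 111, 99.5, and 99.9 CPM with vehicle at 4 h and at 110.4, 103, and 99.99 CPM at 8 h. With FGF6, Insig1 was at 113, 95.1, and 100.4 CPM at 4 h and at 60.5, 55.5, and 51.9 CPM at 8 h. Insig1, the sterol-regulated brake on SREBP, was at one level in 3 groups and lower in the fourth (-0.89 ± 0.085 (SE, edgeR FDR = 1.63e-08)). Fdps, which makes farnesyl diphosphate, differed by -0.79 ± 0.12 (SE, edgeR FDR = 1.28e-05), although 1124 of its 4208 exonic bases are shared with another gene on the same strand. The CCAAT box that the factor NF-Y reads, in capitals below as ATTGG of the other strand, lay in 15 of 17 cholesterol gene promoters (88.2%) against 38.8% of all promoters. The promoter of Hmgcs1 is shown because it holds 3 of them and the gene had the largest decrease of the list.
Hmgcs1, chr13:119690104-119690128, plus strand: ctgaccttcaATTGGtcggagaacc
Hmgcs1, chr13:119690165-119690189, plus strand: ccgtcccgccATTGGcaggcttgtt
Hmgcs1, chr13:119690296-119690320, plus strand: cccgcctctcATTGGctgaaagcgg
The sterol elements searched as GGTGGG and CACCCCAC lay in 35.3% and 11.8% of these promoters and in 37.4% and 3.1% of all promoters.

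Fatty acid synthesis and desaturation had a lower effect at 8 h for 4 of 18 genes. The share called, 22.2%, was below the 30.6% of all genes. The median was -0.05 and lay between -0.0763 (without vehicle 4 h replicate 1) and -0.0144 (without vehicle 8 h replicate 1). Of 24 adipogenic factors and lipid droplet genes, 3 had a higher and 10 a lower effect, with a median of -0.34, or -0.295 with genes at the floor set to 3 counts. Ebf1 was at 70.3, 76, and 73.9 CPM with vehicle at 4 h and at 66.1, 70.2, and 68.2 CPM at 8 h. With FGF6, Ebf1 was at 78.5, 87.3, and 92.1 CPM at 4 h and at 36.2, 35.9, and 36.2 CPM at 8 h. Ebf1, a factor that commits cells to fat, reversed from slightly higher to lower with FGF6 (-1.14 ± 0.069 (SE, edgeR FDR = 8.36e-12)). Pparg was measured at 58.9, 55.2, and 58.6 CPM (vehicle, 4 h), 30.2, 29.6, and 27.6 CPM (FGF6, 4 h), 52.4, 46.6, and 51.9 CPM (vehicle, 8 h), and 19.9, 19.6, and 19.6 CPM (FGF6, 8 h). For Pparg, the master factor of fat cell differentiation, the decrease with FGF6 at 4 h was larger at 8 h (-0.37 ± 0.071 (SE, edgeR FDR = 0.000287)). The fatty acid carrier Fabp4 had a new decrease of -0.39 at 8 h (-0.31 ± 0.066 (SE, edgeR FDR = 0.000749)). The lipid droplet gene Cidec was between 2.84 and 3.82 CPM in vehicle and between 0.0651 and 0.629 CPM with FGF6 (-1.80 ± 0.64 (SE, edgeR FDR = 0.0354)). That call was lost without FGF6 4 h replicate 1 (edgeR FDR = 0.245, difference -1.15), and also without FGF6 4 h replicate 2, FGF6 8 h replicate 1 or 2, vehicle 4 h replicate 2 or 3, or vehicle 8 h replicate 1. Cd36, a fatty acid receptor, was at most 0.377 CPM in any library, with FGF6 at 8 h at 0, 0, and 0.0411 CPM, so that no fold is given here.

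Hypoxia response genes mostly had a lower effect. Of 18 tested, 2 had a higher and 12 a lower effect at 8 h, with medians of -0.11 in vehicle and -0.62 in treated cells. Ndrg1 was at 34, 32.5, and 34.5 CPM with vehicle at 4 h and at 29.99, 27.1, and 25.7 CPM at 8 h. With FGF6, Ndrg1 was at 43.7, 43.4, and 43.8 CPM at 4 h and at 20.5, 19.7, and 21.1 CPM at 8 h. Ndrg1, a stress-induced differentiation gene, reversed without overlap of vehicle and FGF6 at either time (-0.81 ± 0.077 (SE, edgeR FDR = 1.64e-08)). Car9, a carbonic anhydrase, was between 0.651 and 1.27 CPM with FGF6 at 8 h and between 1.46 and 2.49 CPM elsewhere (-1.30 ± 0.32 (SE, edgeR FDR = 0.00267)). Ankrd37, an ankyrin repeat gene, differed by -1.02 ± 0.28 (SE, edgeR FDR = 0.00728) and was not called without both vehicle replicates 1 (edgeR FDR = 0.051). Of 24 genes of glucose uptake and glycolysis, 5 had a higher and 8 a lower effect (6 and 6 with library sizes alone). Of those lower, 5 were left without FGF6 4 h replicate 2, without FGF6 8 h replicate 3, or without both vehicle replicates 1. The effect on Hk2, a hexokinase of the first step, was higher at 8 h (0.35 ± 0.053 (SE, edgeR FDR = 1.7e-05)), and those on the regulators Pfkfb4 (-0.39 ± 0.10 (SE, edgeR FDR = 0.00339)) and Pdk1 (-0.33 ± 0.071 (SE, edgeR FDR = 0.00073)) were lower. Of 29 nuclear genes of the respiratory chain, 6 had a higher effect (3 without FGF6 8 h replicate 2). The share called, 20.7%, was below the 30.6% of all genes. Their median was 0.036, or -0.0127 without vehicle 4 h replicate 3 and 0.0619 without FGF6 4 h replicate 1.

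Matrix genes mostly had a lower effect. Of 30 collagens and matrix proteins, 4 had a higher and 18 a lower effect at 8 h, with a median of -0.27. The list rose by a median of 0.17 in vehicle-treated cells and fell by 0.26 on the log2 scale in treated cells. Ogn was at 20.04, 23, and 26.8 CPM with vehicle at 4 h and at 27.8, 29.8, and 31.5 CPM at 8 h. With FGF6, Ogn was at 18.2, 17.6, and 16.1 CPM at 4 h and at 8.46, 9.04, and 7.48 CPM at 8 h. Ogn, the small proteoglycan osteoglycin, rose in vehicle and fell in treated cells, and FGF6 at 8 h lay below every other library (-1.40 ± 0.13 (SE, edgeR FDR = 1.86e-08)). Col8a1, a short-chain collagen, went the other way (1.34 ± 0.11 (SE, edgeR FDR = 6.04e-10)). Eln, which encodes elastin, was between 1.07 and 1.68 CPM in vehicle at 8 h and at or under 3 counts in each library with FGF6, at least 12.3-fold lower against this floor per library. Of 22 matrix proteases and inhibitors, 3 had a higher and 11 a lower effect. Mmp2, a gelatinase, differed by -0.94 ± 0.072 (SE, edgeR FDR = 3.99e-10) and Adamts1, which cleaves proteoglycans, by -0.67 ± 0.048 (SE, edgeR FDR = 1.14e-10). Timp3, a protease inhibitor, reversed (-0.70 ± 0.041 (SE, edgeR FDR = 5.75e-12)), as vehicle fell by 1.44 and treated cells by 2.14 on the log2 scale.

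Of 20 cytoskeletal targets of YAP and SRF, 5 had a higher and 11 a lower effect, with a median of -0.26. The contractile genes Myl9 (-1.08 ± 0.095 (SE, edgeR FDR = 4.32e-09)) and Actg2 (-0.92 ± 0.28 (SE, edgeR FDR = 0.0135)) had stronger decreases, the latter not called without FGF6 4 h replicate 1 (edgeR FDR = 0.0682) or FGF6 8 h replicate 3 (edgeR FDR = 0.0538). Ankrd1 was at 88.6, 109.7, and 108 CPM with vehicle at 4 h and at 80.7, 76.1, and 81.5 CPM at 8 h. With FGF6, Ankrd1 was at 83.6, 85.9, and 86.7 CPM at 4 h and at 124, 122, and 119.6 CPM at 8 h. Ankrd1, a YAP target, moved against them and reversed to an increase, a difference of 0.88 ± 0.088 (SE, edgeR FDR = 3.5e-08). At 4 h the vehicle replicate 1 of Ankrd1 lay close to the FGF6 libraries. The other genes that reversed to an increase and were named by the rule were Inhbb, Hspa4l, and Osbpl3. Inhbb was measured at 22.4, 20.6, and 22 CPM (vehicle, 4 h), 13.5, 13.3, and 12.1 CPM (FGF6, 4 h), 12.4, 11.5, and 11.3 CPM (vehicle, 8 h), and 14.7, 13.3, and 13.2 CPM (FGF6, 8 h). Inhbb, an activin subunit, fell by 0.88 on the log2 scale in vehicle and did not change significantly in treated cells (0.96 ± 0.11 (SE, edgeR FDR = 5.34e-07)). Osbpl3, an oxysterol-binding protein, rose in treated cells only (0.84 ± 0.072 (SE, edgeR FDR = 2.89e-09)).

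The list of heat shock proteins and that of endoplasmic reticulum chaperones leaned in opposite directions. Of 20 heat shock proteins and cochaperones, 12 had a higher FGF6 effect at 8 h, with a median of 0.23. Hspa4l was at 58.7, 56, and 60.1 CPM with vehicle at 4 h and at 66.2, 59.8, and 64.1 CPM at 8 h. With FGF6, Hspa4l was at 51.4, 50.8, and 49.4 CPM at 4 h and at 104, 99.1, and 99.1 CPM at 8 h. Hspa4l, a nucleotide exchange factor of HSP70, rose in treated cells only and reversed, and the treated libraries at 8 h lay above all others (0.87 ± 0.074 (SE, edgeR FDR = 2.43e-09)). Hspa1b was at 38.2, 42, and 41.4 CPM with vehicle at 4 h and at 43.5, 40.2, and 42.9 CPM at 8 h. With FGF6, Hspa1b was at 22, 18.1, and 14.6 CPM at 4 h and at 36.2, 34.9, and 31.3 CPM at 8 h. Hspa1b, an inducible HSP70, lost most of its decrease (0.84 ± 0.12 (SE, edgeR FDR = 1.05e-05)). Hspa1a, whose sequence is nearly identical, differed by 0.84 ± 0.25 (SE, edgeR FDR = 0.0107), and reads of the pair may be split between them. Of 23 chaperones and genes of the unfolded protein response, 13 had a lower effect at 8 h, with a median of -0.14. Without FGF6 4 h replicate 1 or FGF6 8 h replicate 3, 8 did so. Vehicle-treated cells rose by a median of 0.21 and treated cells by 0.022. Xbp1, a factor of this response, fell in treated and rose in vehicle-treated cells (-0.67 ± 0.076 (SE, edgeR FDR = 3.01e-07)), as did the chaperone Hspa5 (-0.38 ± 0.055 (SE, edgeR FDR = 9.75e-06)). Dnajb9, a cochaperone, lost an increase (-0.37 ± 0.11 (SE, edgeR FDR = 0.0125)), a call that was lost without FGF6 4 h replicate 1 (edgeR FDR = 0.0677). Of 23 NRF2 and antioxidant targets, 10 had a higher and 5 a lower effect (3 without FGF6 4 h replicate 1). Gclc, the first enzyme of glutathione synthesis, fell in vehicle only (0.67 ± 0.058 (SE, edgeR FDR = 3.19e-09)), Osgin1 reversed to a decrease (-0.68 ± 0.089 (SE, edgeR FDR = 2.22e-06)), and the transferase Gstm1 had a stronger decrease (-0.63 ± 0.063 (SE, edgeR FDR = 2.99e-08)).

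Clock genes leaned to a lower effect. Of 18 tested, 1 had a higher and 7 a lower effect at 8 h, with a median of -0.25. That median was -0.0943 without FGF6 4 h replicate 2, -0.138 without FGF6 8 h replicate 2, -0.13 and -0.117 without vehicle replicate 1 of 4 h and of 8 h, and -0.0761 without both of these. Per2 was at 15.1, 15.1, and 15.2 CPM with vehicle at 4 h and at 7.8, 7.82, and 6.81 CPM at 8 h. With FGF6, Per2 was at 15, 12.5, and 12.7 CPM at 4 h and at 4.04, 2.39, and 3.41 CPM at 8 h. Per2, a core repressor of the clock, did not differ significantly at 4 h, fell in both kinds of cells, and was lower with FGF6 at 8 h without overlap (-1.01 ± 0.16 (SE, edgeR FDR = 2.64e-05)). Ciart, a clock repressor, reversed (-1.15 ± 0.17 (SE, edgeR FDR = 8.11e-06)), and Rora, an activator at between 0.907 and 2.7 CPM, gained a decrease (-1.11 ± 0.24 (SE, edgeR FDR = 0.000919)). Of 14 NR4A receptors and cyclic AMP response genes, 3 had a higher and 1 a lower effect (3 and 0 with library sizes alone). The share called, 28.6%, was near the 30.6% of all genes. Nr4a1 (0.76 ± 0.13 (SE, edgeR FDR = 8.62e-05)) and Nr4a2 (0.59 ± 0.16 (SE, edgeR FDR = 0.00646)) gained an increase while vehicle fell. Pde4b, which breaks down cyclic AMP, lost part of its decrease (0.83 ± 0.092 (SE, edgeR FDR = 1.69e-07)). Glucocorticoid targets were split, with 5 higher (3 without FGF6 8 h replicate 1) and 6 lower of 15. The kinase Sgk1 had a larger increase (0.58 ± 0.056 (SE, edgeR FDR = 1.94e-08)), whereas the leucine zipper gene Tsc22d3 (-0.44 ± 0.11 (SE, edgeR FDR = 0.00263)) and the iron carrier Lcn2 (-0.90 ± 0.11 (SE, edgeR FDR = 1.41e-06)) had larger or new decreases. Among 21 other nuclear receptors, 6 had a higher and 2 a lower effect. Nr2f1 (0.56 ± 0.094 (SE, edgeR FDR = 5.38e-05)) and Nr2f6 (0.82 ± 0.12 (SE, edgeR FDR = 9.93e-06)) reversed to an increase, with 1622 of the 2983 exonic bases of Nr2f6 covered by a gene on the other strand, and the thyroid hormone receptor Thra had a stronger decrease (-0.78 ± 0.058 (SE, edgeR FDR = 2.34e-10)).

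**Figure D4:**
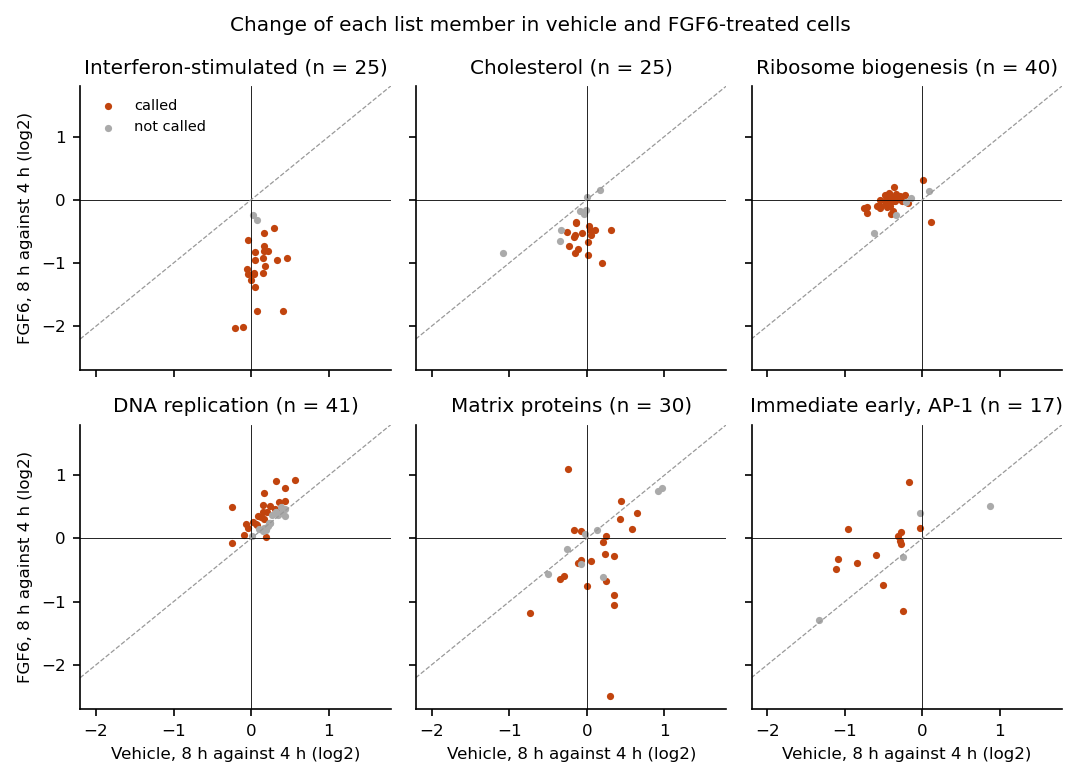
For 6 gene lists, each gene is plotted by its log2 change between 4 h and 8 h in vehicle-treated cells (x axis) and in FGF6-treated cells (y axis), with genes whose FGF6 effect differed (edgeR FDR under 0.05) in color and the others in grey. Points on the dashed line changed equally, the 23 interferon-stimulated genes called lie below it near 0 in vehicle, and 34 of the 35 ribosome biogenesis genes called lie above it.

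Developmental pathways had mixed members. Of 31 WNT ligands, receptors, and inhibitors, 7 had a higher and 4 a lower effect, with a median of 0.18 that became -0.0261 with genes at the floor set to 3 counts and -0.0182 without FGF6 4 h replicate 1. It was also smaller without FGF6 4 h replicate 3 (0.0603), FGF6 8 h replicate 3 (0.0433), or vehicle 8 h replicate 2 (0.0912). Dkk2 was at 1.43, 1.89, and 1.4 CPM with vehicle at 4 h and at 2.24, 1.94, and 2.46 CPM at 8 h. With FGF6, Dkk2 was at 7.58, 7.3, and 6.91 CPM at 4 h and at 33.7, 39.1, and 37.8 CPM at 8 h. Dkk2, a secreted WNT antagonist, rose more in treated than in vehicle-treated cells, and all treated libraries lay above all vehicle libraries (1.85 ± 0.18 (SE, edgeR FDR = 2.87e-08)). Wnt10a (1.26 ± 0.36 (SE, edgeR FDR = 0.00865)) and the WNT inhibitor Sfrp4 (-1.45 ± 0.40 (SE, edgeR FDR = 0.007)) were low, at no more than 3.41 CPM. Of 11 Notch genes, 3 had a higher and 4 a lower effect. The receptor Notch3 (-1.15 ± 0.074 (SE, edgeR FDR = 2e-11)) and its modifier Lfng (-0.79 ± 0.12 (SE, edgeR FDR = 1.36e-05)) had stronger decreases, and the ligand Jag1 lost part of its increase (-0.58 ± 0.15 (SE, edgeR FDR = 0.00522)). Of 27 genes of TGF-beta and BMP signalling, 9 had a higher and 8 a lower effect. Id1 was at 154, 156, and 156 CPM with vehicle at 4 h and at 80.4, 72.3, and 71 CPM at 8 h. With FGF6, Id1 was at 91.4, 97.8, and 86.4 CPM at 4 h and at 76.6, 76.6, and 76.3 CPM at 8 h. Id1, a target of BMP, fell most in vehicle, so that its decrease with FGF6 at 4 h was no longer present at 8 h (0.79 ± 0.076 (SE, edgeR FDR = 1.94e-08)). Smad3, which transmits TGF-beta signals, lost its increase (-0.48 ± 0.06 (SE, edgeR FDR = 9.85e-07)), and the ligand Tgfb1 had a larger one (0.53 ± 0.089 (SE, edgeR FDR = 6.2e-05)).

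The largest gained increases by the rule were Nptx1, Tmem200a, Etv4, Has1, and Unc13c. Nptx1 (ENSMUSG00000025582, chr11:119538719-119547753, minus strand) encodes a secreted pentraxin known from synapses. Nptx1 was at 11.9, 13.4, and 11.1 CPM with vehicle at 4 h and at 1.04, 1.33, and 1.64 CPM at 8 h. With FGF6, Nptx1 was at 50.2, 51.4, and 57.2 CPM at 4 h and at 36.5, 42.5, and 45.7 CPM at 8 h. The change lay mostly in vehicle-treated cells, which fell by 3.19 on the log2 scale against 0.35 in treated cells, and the difference was 2.84 ± 0.17 (SE, edgeR FDR = 8.6e-12). Tmem200a, a transmembrane protein, was of the other kind. Tmem200a was at 1.33, 1.95, and 1.33 CPM with vehicle at 4 h and at 0.568, 0.763, and 0.513 CPM at 8 h. With FGF6, Tmem200a was at 20.4, 21, and 22 CPM at 4 h and at 44, 47, and 46.8 CPM at 8 h. Treated cells rose while vehicle fell from a low level, and the 4 groups did not overlap (2.44 ± 0.22 (SE, edgeR FDR = 5.49e-09)). Has1, a hyaluronan synthase, followed the same course (2.00 ± 0.22 (SE, edgeR FDR = 1.91e-07)), as did Unc13c, a homolog of synaptic vesicle priming proteins (1.94 ± 0.24 (SE, edgeR FDR = 1.24e-06)).

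In the largest lost responses treated cells changed more than vehicle-treated cells, which had changed significantly as well for Sphk1, G0s2, Jarid2, Gpr176, Cavin2, and Pde4b. Sphk1 was at 7.78, 6.8, and 6.74 CPM with vehicle at 4 h and at 4.61, 4.29, and 4.62 CPM at 8 h. With FGF6, Sphk1 was at 25.6, 26.1, and 27.9 CPM at 4 h and at 6.38, 6.22, and 5.79 CPM at 8 h. Sphk1 (ENSMUSG00000061878, chr11:116530925-116536674, plus strand), which makes sphingosine 1-phosphate, was far above vehicle at 4 h and only slightly above at 8 h, without overlap at either time (-1.45 ± 0.12 (SE, edgeR FDR = 2.56e-09)). Gpr176 was at 40.02, 46.1, and 46.3 CPM with vehicle at 4 h and at 26.7, 29.6, and 29.4 CPM at 8 h. With FGF6, Gpr176 was at 89.1, 100.5, and 93.5 CPM at 4 h and at 32.7, 28.8, and 28.1 CPM at 8 h. Gpr176, an orphan receptor, returned to the vehicle level, where the groups overlapped (-1.03 ± 0.094 (SE, edgeR FDR = 7.51e-09)). G0s2, an inhibitor of lipolysis, lost much of its increase (-1.16 ± 0.20 (SE, edgeR FDR = 6.72e-05)), and Jarid2, a subunit of the PRC2 complex, most of it (-1.07 ± 0.078 (SE, edgeR FDR = 1.68e-10)). Among lost decreases, Cavin2 was measured at 30.3, 33.7, and 30.8 CPM (vehicle, 4 h), 10.8, 8.32, and 9.1 CPM (FGF6, 4 h), 41.4, 39.5, and 34.2 CPM (vehicle, 8 h), and 19.9, 20.8, and 20.7 CPM (FGF6, 8 h). Cavin2, a coat protein of caveolae, was lower with FGF6 at both times, less so at 8 h (from -1.75 at 4 h to -0.91 at 8 h on the log2 scale, a difference of 0.84 ± 0.11 (SE, edgeR FDR = 2.94e-06)). Ak5, an adenylate kinase (1.09 ± 0.20 (SE, edgeR FDR = 0.00017)), and Rtn4rl1, a Nogo receptor homolog (0.92 ± 0.14 (SE, edgeR FDR = 2.18e-05)), no longer differed significantly from vehicle at 8 h.

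Genes the study followed at the protein or enzyme level included those of prostaglandin E2. Of 11 genes of its synthesis and receptors, 5 had a higher and 2 a lower effect at 8 h (6 and 1 with library sizes alone). Ptgs2 was at 159, 155, and 148 CPM with vehicle at 4 h and at 88.9, 78, and 83.1 CPM at 8 h. With FGF6, Ptgs2 was at 1288, 1254, and 1287 CPM at 4 h and at 1267, 1172, and 1185 CPM at 8 h. Ptgs2, the inducible cyclooxygenase COX-2, was level in treated cells at the 2 times and fell in vehicle, and the difference was 0.81 ± 0.10 (SE, edgeR FDR = 1.21e-06). Ptgs1, the constitutive enzyme, followed the same course (0.38 ± 0.063 (SE, edgeR FDR = 5e-05)). The phospholipase Pla2g12a had a larger increase (0.24 ± 0.083 (SE, edgeR FDR = 0.0286)) and the exporter Abcc4 a smaller one (-0.30 ± 0.072 (SE, edgeR FDR = 0.00207)). The call of Pla2g12a was lost without FGF6 4 h replicate 2, FGF6 8 h replicate 3, vehicle 4 h replicate 1 or 2, or vehicle 8 h replicate 2 (edgeR FDR of at most 0.0877). Neither Ptges (0.053 ± 0.062 (SE, edgeR FDR = 0.579)), Ptges2 (0.16 ± 0.077 (SE, edgeR FDR = 0.129)), nor Pla2g4a (0.11 ± 0.053 (SE, edgeR FDR = 0.115)) passed the test. The transcriptional regulators Esrra (0.15 ± 0.077 (SE, edgeR FDR = 0.138)), Flii (0.04 ± 0.052 (SE, edgeR FDR = 0.613)), and Lrrfip1 (0.11 ± 0.047 (SE, edgeR FDR = 0.0852)) did not pass either, although Lrrfip1 did with library sizes alone (edgeR FDR = 0.018). Esrra was higher with FGF6 at both times (0.71 and 0.86), Lrrfip1 likewise (1.22 and 1.33), and Flii was within its spread at both. The brown fat regulators Ppargc1a (0.081 ± 0.20 (SE, edgeR FDR = 0.814)) and Prdm16 (0.075 ± 0.11 (SE, edgeR FDR = 0.663)) did not pass the test. Dio2, with 0 counts, and Cidea, with 0 or 1, were not tested.

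**Figure D5:**
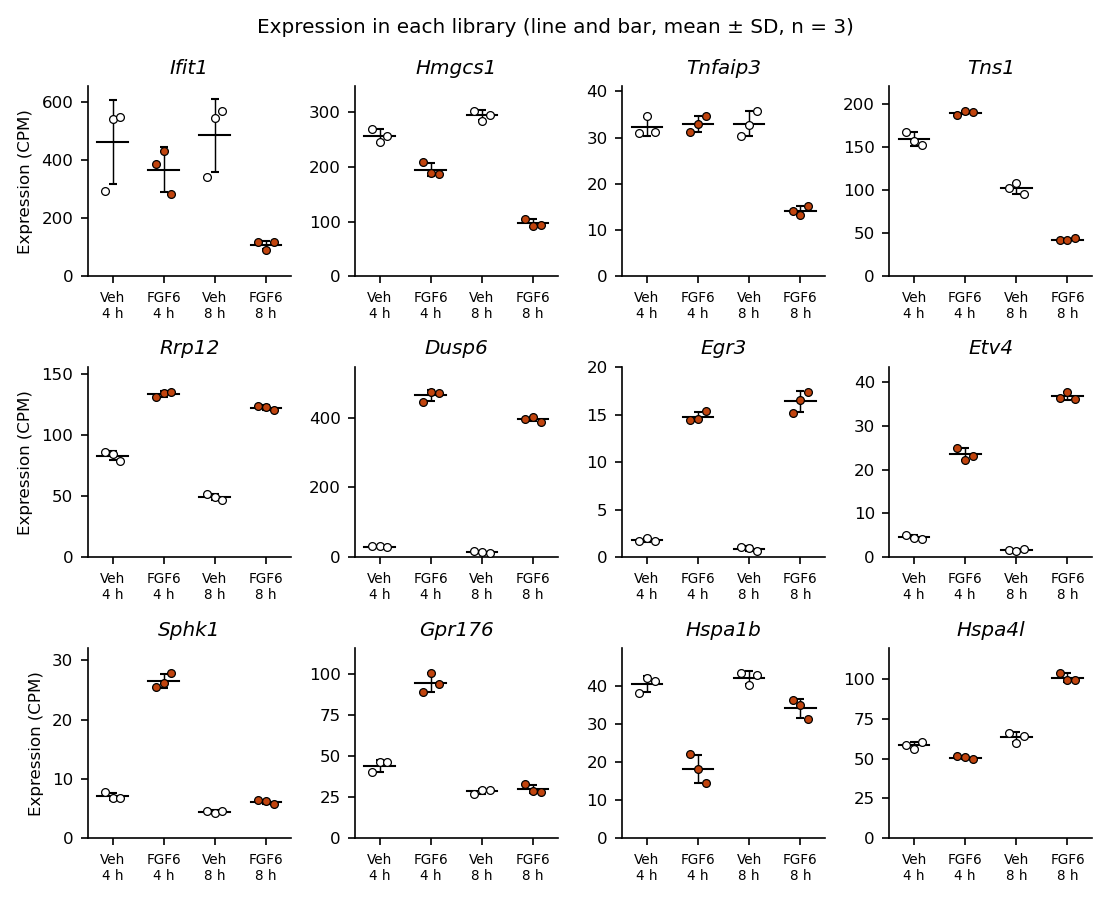
Expression of 12 genes is given in CPM on linear axes from 0, with each library of vehicle (open) and FGF6 (filled) at 4 h and 8 h as a point and the mean ± SD of 3 libraries as a line and bar. Ifit1, Hmgcs1, and Tnfaip3 are lowest with FGF6 at 8 h, Hmgcs1 being below vehicle at 4 h already, Rrp12 and Dusp6 fall more in vehicle than with FGF6 in log2 terms, and Sphk1 and Gpr176 are high only with FGF6 at 4 h.

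Markers of the cells themselves changed as well, and those of other cell types were low. Of 12 preadipocyte markers, 3 had a higher and 5 a lower effect at 8 h, among them Cd34, a progenitor marker (0.57 ± 0.14 (SE, edgeR FDR = 0.00283)), Ly6a, the Sca-1 antigen (-0.74 ± 0.14 (SE, edgeR FDR = 0.000201)), and Pdgfra, a PDGF receptor (-0.54 ± 0.048 (SE, edgeR FDR = 5.12e-09)). The macrophage marker Cd68 lost part of its increase (-0.31 ± 0.11 (SE, edgeR FDR = 0.0325)) at between 7.57 and 16.7 CPM, and this call was lost without any single library except FGF6 8 h replicate 2, vehicle 4 h replicate 3, and vehicle 8 h replicate 2. The endothelial receptor Kdr (1.29 ± 0.47 (SE, edgeR FDR = 0.0387)) was at no more than 2.05 CPM. Its call was lost without any single library except FGF6 4 h replicate 2, FGF6 8 h replicate 1, vehicle 4 h replicate 1, and vehicle 8 h replicate 1. The keratins Krt8 and Krt18 were at no more than 0.924 CPM, with Krt18 at 0 in vehicle at 8 h, so that no fold is given here. The part of such cells in the gene groups above was not tested.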

How the data were processed

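Brown preadipocytes treated with vehicle or FGF6 were sequenced as total RNA after 4 h, 8 h, or 24 h, with 3 libraries in each of 6 groups, assigned from the labels of treatment and time. Per the labels' processing notes, the authors aligned the reads with STAR to GRCm38 and assigned them to genes with featureCounts of Subread, and the methods name GRCm38.p4 and GENCODE. They deposited raw counts per gene with no normalization. Tool versions, the annotation release, and the strand setting are not given in the sources used here, so that overlapping genes and near-identical copies have uncertain counts. Overlaps are stated above for some genes only. Others named also overlap genes on the other strand, among them Timp3 (1733 of 8144 exonic bases), Dusp5 (547 of 2473), Ankrd37 (406 of 1539), and Cebpb (312 of 1504). Symbols and positions came from GENCODE M21 on GRCm38, which held 98.5% of the identifiers.

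From the deposited counts, genes were kept with filterByExpr (15071 of 48023), TMM factors were computed, and edgeR 4.0.16 in R 4.3.3 estimated 1 mean for each of the 6 groups by its quasi-likelihood method, with all 18 libraries in the fit and no covariate. The difference of the FGF6 effect between 8 h and 4 h was the contrast of 4 groups, with Benjamini-Hochberg adjustment over all genes and a threshold of 0.05. The standard error is the one implied by the F statistic. CPM values use the TMM-scaled total. For a single gene, the smallest p of an exact permutation test over 3 and 3 libraries would be 0.1.

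The genes named were the 5 largest differences in each direction of each class among genes called in every fit that left out 1 library, with a mean of at least 5 CPM. Added were the 3 largest differences called in each of 42 lists in which at least 25% of genes were called or the median exceeded 0.1 in size, and the genes the study followed. Irf9, Bst2, and Taf1b were named after their values had been seen. The members and lists were chosen with earlier results of these data known. Alternatives were limma 3.58.1 with voom, DESeq2 1.42.0, other scalings and filters, the 12 libraries alone, a replicate block, an FDR of 0.25, and leaving out each library. In simulated counts with 199 changed genes tested among 14904, 140 (70.4%) were recovered with 2 false calls. These values describe the simulated counts only. In the measured libraries 4615 of 15071 genes were called, and the share of false calls among them was not tested. Promoters from RefSeq (GRCm38.p6) matched 10683 genes by symbol. Some genes are not reported here, and experiments other than the RNA-seq were not analysed here.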

Additional observations from a re-analysis of the deposited data

Results flagged for a closer look

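The FGF6 effect under the same contrast with vehicle differed between 8 h and 4 h, by the interaction test in edgeR (FDR under 0.05), for 4615 genes. Of the genes named, 133 passed. Their values are given below as the log2 effect at 8 h minus that at 4 h, with no explanation. No sample stood out within its group by a test, since groups of 3 are not tested for outliers, and all data columns of the 12 libraries were used in the comparisons.

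Among genes with a gained increase, the difference was 2.84 for Nptx1, 2.48 for Krt8, 2.44 for Tmem200a, 2.06 for Etv4, 2.00 for Has1, 1.94 for Unc13c, 1.90 for Il33, 1.85 for Dkk2, 1.76 for Areg, and 1.58 for Ccl11. It was 1.34 for Col8a1, 1.29 for Kdr, 1.26 for Wnt10a, 1.18 for Pmaip1, 1.10 for Egr3, 1.07 for Ier3, 1.03 for Ccnd1, 0.81 for Ptgs2, 0.77 for Dusp6, 0.76 for Nr4a1, and 0.69 for Etv5. Further values were 0.67 for Gclc, 0.63 for Rrp12, 0.60 for Ppan, 0.59 for Nr4a2, 0.58 for Sgk1, 0.57 for Cd34, 0.56 for Mybbp1a, 0.53 for Tgfb1, 0.51 for Rasa1, 0.51 for Vars, and 0.49 for Dusp5. Smaller ones were 0.38 for Ptgs1, 0.36 for Iars, 0.35 for Hk2, 0.28 for Myc, and 0.24 for Pla2g12a.

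Among genes with a gained decrease, the difference was -3.91 for Cd36, -2.80 for Eln, -2.69 for Ifi47, -2.68 for Aoc3, -2.60 for Gbp5, -2.57 for Gm4951, -2.41 for Iigp1, -2.17 for Mx1, -1.90 for Ifit3, -1.84 for Ifit1, and -1.80 for Cidec. It was -1.58 for Angpt2, -1.45 for Sfrp4, -1.42 for Fas, -1.40 for Ogn, -1.31 for Pik3ip1, -1.30 for Car9, -1.24 for Tnfaip3, -1.20 for Hmgcs1, -1.16 for Igfbp4, -1.15 for Notch3, and -1.11 for Rora. Further values were -1.08 for Myl9, -1.04 for Fbxo32, -1.02 for Ankrd37, -1.01 for Per2, -0.95 for Cxcl12, -0.94 for Mmp2, -0.92 for Actg2, -0.90 for Atf3, -0.90 for Lcn2, -0.89 for Insig1, and -0.79 for Lfng. Smaller ones were -0.79 for Fdps, -0.78 for Thra, -0.74 for Ly6a, -0.69 for Gadd45g, -0.67 for Adamts1, -0.67 for Xbp1, -0.66 for Ddit4, -0.63 for Gstm1, -0.58 for Mxd1, -0.54 for Pdgfra, and -0.44 for Tsc22d3. Smaller ones were -0.39 for Pfkfb4, -0.38 for Hspa5, -0.37 for Pparg, -0.33 for Pdk1, and -0.31 for Fabp4.

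Among genes with a lost increase, the difference was -1.45 for Sphk1, -1.43 for Ifi205, -1.16 for G0s2, -1.07 for Jarid2, -1.03 for Gpr176, -0.59 for Cdkn1a, -0.58 for Jag1, -0.48 for Smad3, -0.44 for Mlxip, -0.37 for Dnajb9, and -0.31 for Cd68. It was -0.30 for Abcc4.

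Among genes with a lost decrease, the difference was 1.09 for Ak5, 0.92 for Rtn4rl1, 0.84 for Hspa1b, 0.84 for Cavin2, 0.84 for Hspa1a, 0.83 for Pde4b, 0.79 for Id1, 0.72 for Fgfr3, 0.68 for Cebpb, and 0.48 for Ets2.

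Among genes that went from an increase to a decrease, the difference was -2.15 for Cxcl10, -1.55 for Ppfibp2, -1.52 for Tns1, -1.40 for Slfn2, -1.33 for Cd274, -1.17 for Egfr, -1.15 for Ciart, -1.14 for Ebf1, -0.997 for Vldlr, -0.81 for Ndrg1, and -0.70 for Timp3. It was -0.68 for Osgin1, and -0.64 for Nfkbie.

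Among genes that went from a decrease to an increase, the difference was 0.96 for Inhbb, 0.89 for E2f2, 0.88 for Ankrd1, 0.87 for Hspa4l, 0.84 for Osbpl3, 0.82 for Nr2f6, 0.75 for Fen1, 0.60 for Cdc6, 0.56 for Nr2f1, 0.56 for Rrm2, and 0.32 for Mars. The values of Cd36, Krt8, and Eln come from fits with a group at or under 3 counts and are no measure of size, and their place in the order above has no meaning. With levels below 3 counts set to 3 counts, the differences were -1.21 for Cd36, 1.42 for Krt8, and -2.24 for Eln. Krt18 was fitted at 3.79 with both vehicle groups at or under 3 counts, and with these set to 3 counts its difference was -0.76, so that its direction is not known.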

How the results depend on the processing

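All counts over the whole table (genes whose effect differed, each class, and each kind of mover) stayed within 1.5 times under limma with voom, DESeq2, scaling by library size or by upper quartiles, no filter or a minimum of 10 counts in each library, a fit of the 12 libraries alone, and the replicate number as a block. Leaving out each of the 12 libraries gave between 4056 and 4431 genes whose effect differed, and 3245 of the 4615 genes (70.3%) were called each time. Without both vehicle replicates 1, an alternative chosen after seeing the data, 2085 genes were higher and 2000 lower. An FDR under 0.25 raised the counts to 7397 genes, with 5299 gained, 1539 lost, and 539 reversed, and to 3739 genes that moved in both kinds of cells, by the looser threshold itself. The share of higher among the genes called was 50.6%, 59.9% with library sizes alone, and 55.6% with the 12 libraries alone.

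No source used here says what equal replicate numbers share. The deviations of same-numbered libraries from their group means correlated by between -0.0394 and 0.1 over 18 pairs, with the highest value for both vehicle replicates 1, so the samples were not treated as paired. A shared batch of some of them was not tested. With the replicate number as a block, 4657 genes were called, 2363 higher and 2294 lower, and of the genes named only Krt18 lost its call (edgeR FDR = 0.0553).

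Of 1180 values of the 133 genes named and called, 1163 kept their direction and call under the processing alternatives and 17 (9 genes) lost the call. Leaving out 1 library changed 53 of 1596 values, also by a lost call, in 9 genes, and turned no direction. These genes were Actg2, Cd36, Cd68, Cidec, Dnajb9, Kdr, Krt8, Krt18, and Pla2g12a, and Ankrd37 lost its call without both vehicle replicates 1. Of the 10 genes not called, Lrrfip1 and Pla2g4a were called under some alternatives. Ppargc1a ranged from -0.0494 (without FGF6 4 h replicate 3) to 0.214 and Prdm16 from -0.00228 (without vehicle 8 h replicate 1) to 0.125 when 1 library was left out, and the cause was not tested. Low counts limit Cd36, Eln, Krt8, and Krt18, whose folds, and for Krt18 the direction, depend on the floor.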
